A study of Mus musculus with 12 samples.

Results

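The members are the genes of mouse chromosome 11 that start below 100 Mb in the mm10 build, read here for gene dosage in clone C1 and the 11C line. The series holds no DNA data, so copy number is read from RNA counts alone, and an added copy in this text means a ratio of counts. They were taken from the deposited count tables as genes on chromosome 11 whose lowest start is below 100000000 and whose counted length is under 500000 bases. Of 22556 genes in the tables, 1698 lie on chromosome 11, 1261 of those start below 100 Mb, and 1230 are members. The 31 genes left out are 7 by length, 7 by name (Commd1, Zrsr1, Grb10, Suz12, Ccng1, Trp53 and Tug1) and 17 with names beginning Nduf, Mrpl, Mrps, Rpl, Rps or Hist. This region was chosen with the counts of these libraries already known, so differences between lines are described and not tested.

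The study sequenced chromatin-associated RNA from female mouse embryonic stem cells of a 129S by Castaneus (Cast) cross, to ask which regions of Xist RNA silencing of the X chromosome needs. Every line carries a TetOn promoter in place of the Xist promoter on the 129S allele, and doxycycline (Dox) for 24 h switches it on. All were grown in LIF medium on mouse fibroblast feeders inactivated with Mitomycin, which were removed by pre-plating before RNA was taken. Lines were WT Xist (WT), 3 clones lacking the A-repeat (C1, 2C2 and C11), and 1 line lacking the m6A region (11C).

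WT and each clone gave 1 library without Dox and 1 with Dox, and 11C gave 2 of each, so there are 12 libraries. Each clone is a single clone and the 11C replicates come from 1 line, so a value belongs to that line and not to its Xist genotype.

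Mouse embryonic stem cells in culture often gain whole chromosomes or arms, because some gains let cells divide faster. An added copy supplies more template, and transcripts of its genes tend to go up in proportion. In a hybrid of strains, single-base differences assign reads to a parental allele, so a gained copy also moves the allelic share of its genes, which does not depend on library size.

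The 129S share of clone 2C2 changes along the chromosome between Med1, a subunit of Mediator, and Cdk12, a kinase of the RNA polymerase II tail. The promoters of Med1, Cdk12 and the next member with enough allelic counts, Stard3, a cholesterol-binding protein of late endosomes, are shown because they stand at that place. All 3 were chosen after their values were seen. Each runs from 250 bases before to 50 after the gene start in RefSeq on GRCm38.p6, at chr11:98192857-98193156 on the minus strand (Med1), chr11:98203055-98203354 on the plus strand (Cdk12) and chr11:98358118-98358417 on the plus strand (Stard3). The counted Med1 gene begins further upstream, at 98193293, so its RefSeq promoter lies within the counted span. Capitals mark CG.

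Med1: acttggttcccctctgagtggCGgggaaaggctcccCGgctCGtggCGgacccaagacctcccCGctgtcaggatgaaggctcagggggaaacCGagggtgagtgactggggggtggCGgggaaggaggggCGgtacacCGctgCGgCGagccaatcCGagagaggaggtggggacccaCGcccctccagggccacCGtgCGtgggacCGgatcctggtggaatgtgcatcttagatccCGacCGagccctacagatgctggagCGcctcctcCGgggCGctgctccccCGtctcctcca
Cdk12: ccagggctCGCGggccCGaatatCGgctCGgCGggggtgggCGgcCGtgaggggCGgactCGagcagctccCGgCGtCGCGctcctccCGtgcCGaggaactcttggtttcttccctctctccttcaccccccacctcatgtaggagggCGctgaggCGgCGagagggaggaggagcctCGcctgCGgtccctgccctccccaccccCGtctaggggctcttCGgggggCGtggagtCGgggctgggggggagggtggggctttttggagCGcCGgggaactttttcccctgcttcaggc
Stard3: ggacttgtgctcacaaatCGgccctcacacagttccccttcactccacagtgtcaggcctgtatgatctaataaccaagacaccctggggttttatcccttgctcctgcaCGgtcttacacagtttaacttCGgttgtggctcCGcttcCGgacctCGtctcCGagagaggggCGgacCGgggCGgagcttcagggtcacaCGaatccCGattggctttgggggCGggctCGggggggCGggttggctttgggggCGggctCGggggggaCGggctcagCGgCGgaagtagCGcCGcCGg

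They hold 22, 27 and 23 CG, where the median of 32851 promoters is 7 and that of 1126 promoters of members is 16. The GC box GGGCGG, counted with CCGCCC for the other strand and with overlapping hits, occurs 1 time in Med1, 2 times in Cdk12 and 5 times in Stard3. At least 1 GC box occurs in 35.7% of all promoters and in 50.8% of member promoters, so having it does not set these 3 genes apart.

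Counts on genes numbered 27022431 and 27795782 in WT (without and with Dox), 25742430 and 27489603 in C1, 22949578 and 27300014 in 2C2, and 26081951 and 27469878 in C11. The 11C libraries held 21551628 and 36007145 in replicate 1 and 18893447 and 21079263 in replicate 2. Between 44.6% and 47.1% of counts carried an allele, and allelic counts on members ranged from 473510 to 1052669. Of the 1230 members, 698 had a mean of at least 50 counts, 594 also reached that mean in allelic counts, 404 had counts but a mean under 50, and 128 had 0 counts in every library. Values of members therefore rest on 698 genes for totals and 594 for shares, and the others are too shallow to read.

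Members took up 5.83% and 5.87% of all gene counts in WT, 5.23% and 5.11% in 2C2, and 5.42% and 5.39% in C11. In C1 they took up 7.34% and 7.16%, and in 11C 6.96% and 7.19% (replicate 1) and 6.81% and 6.87% (replicate 2). A larger slice of chromatin RNA thus came from members in every C1 and 11C library than in any library of the other lines.

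Cell identity was read from marker lists. The 10 embryonic stem cell markers (10 of 10 in the tables, Sox2, which lies within Sox2ot, at 0, Zfp42 the most abundant) summed to 2145 and 2216 RPM (counts scaled to the library total) in WT, 2121 and 2119 in C1, 2234 and 2419 in 2C2, 2271 and 2309 in C11, and 2102, 2540, 1762 and 1674 in 11C (NoDox1, Dox1, NoDox2, Dox2). Feeder fibroblast markers (10 of 10, none at 0, Col1a2 the most abundant, the member Col1a1 among them) summed to 13.1 and 12.1 RPM in WT, 17.7 and 16.2 in C1, 12.2 and 14.6 in 2C2, 11.3 and 10.0 in C11, and 11.4, 11.97, 7.89 and 6.31 in 11C. Feeder markers were thus low in every library, though these sums give no share of feeder RNA. Primitive endoderm markers (8 of 8, none at 0), led by the member Sparc, a matrix protein, summed to 102 and 102 RPM in WT, 94.5 and 89.7 in C1, 86.3 and 92.7 in 2C2, 88.4 and 86.1 in C11, and 126, 125, 104 and 91.2 in 11C. Primed and early lineage markers (8 of 8, Sox1, which overlaps Gm5607, at 0, Otx2 the most abundant) summed to 40.8 and 32.0 in WT, 48.8 and 45.04 in C1, 35.8 and 37.0 in 2C2, 31.9 and 28.8 in C11, and 86.7, 68.8, 55.8 and 41.1 in 11C. In 11C replicate 1 thus departs most from C11 in the lineage lists and replicate 2 in stem cell and feeder markers. Both C1 libraries had higher feeder and primed sums than either C11 library. The part of these markers in the differences of single members was not tested. In bulk RNA, an added copy in some of the cells, a different number of cells of a type and a different amount of RNA per cell cannot be told apart.

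The median 129S share of members (129S counts over allelic counts) was 0.559 and 0.561 in WT, 0.688 and 0.690 in C1, 0.525 and 0.527 in 2C2, and 0.524 and 0.520 in C11. It was 0.687, 0.683, 0.681 and 0.684 in 11C. Members thus leaned to 129S by the same amount in C1 and 11C, near the 0.667 that 2 copies of 3 give, and the Dox state made little difference. Genes of other autosomes had line means of 0.518 in WT, C1 and 2C2, 0.514 in C11 and 0.513 in 11C. Single autosomes had medians from 0.352 to 0.531 in WT, 0.356 to 0.536 in C1, 0.358 to 0.534 in 2C2, 0.356 to 0.535 in C11 and 0.351 to 0.530 in 11C. Some other chromosomes thus leaned to Cast, and none to 129S as members did in C1 and 11C.

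**Figure D1:**
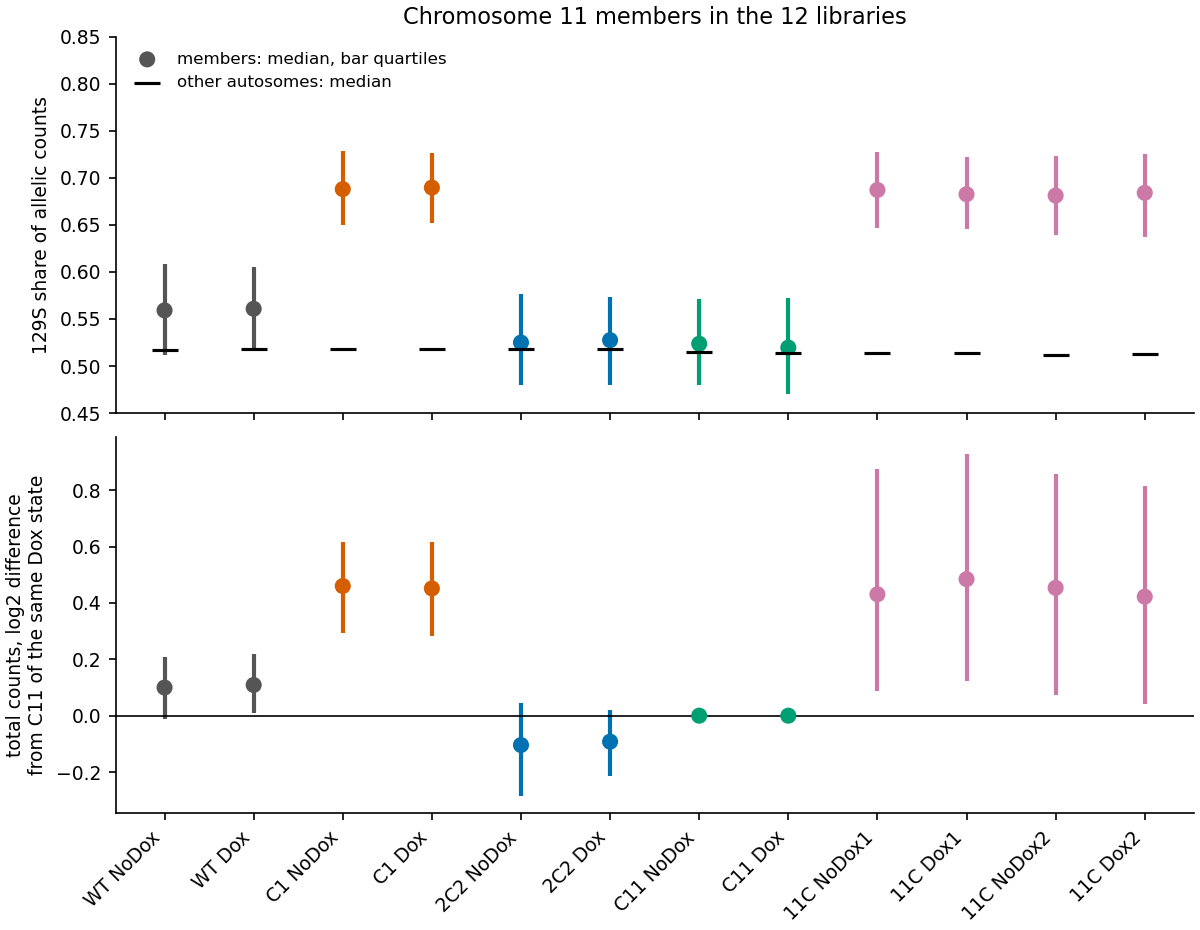
Median and quartiles over members, in each library, of the 129S share and of the total log2 difference from the C11 library of the same Dox state.

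Total counts gave the size of the dosage difference. Each library was compared with the C11 library of the same Dox state, scaled so that the median autosomal gene outside chromosome 11 stood at 0. The median log2 difference of members was 0.46 and 0.45 in C1, 0.43, 0.48, 0.45 and 0.42 in 11C, 0.10 and 0.11 in WT, and -0.10 and -0.09 in 2C2. Against 2C2 in place of C11, the line means were 0.56 in C1, 0.55 in 11C and 0.21 in WT. Transcripts of the median member thus came near the 0.58 of 3 copies over 2 against 2C2 and stayed under it against C11.

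Split by allele, the difference lay on 129S. Against C11, the 129S counts of the median member differed by 0.84 in C1 and 0.83 in 11C, and its Cast counts by -0.14 and -0.16. Against 2C2 the same values were 0.96 and 0.95 for 129S and -0.02 and -0.06 for Cast. The Cast allele of members in C1 and 11C was thus level with that of 2C2, while 129S stood close to a doubling. Clone 2C2 stood lower than C11 on both alleles, by -0.10 (129S) and -0.11 (Cast), with an unmoved share. WT stood 0.20 higher than C11 on 129S and -0.01 on Cast, a smaller lean of the same kind, and whether it comes from an added copy in part of the cells was not tested.

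Members moved together as a block. Those with a higher total than C11 in every pairing of libraries numbered 612 of 698 in C1 (37.9% of genes on other autosomes), 437 in 11C (28.4%), 432 in WT (33.7%) and 102 in 2C2 (33.2%). Those lower in every pairing numbered 39 in C1 (37.9%), 53 in 11C (28%), 77 in WT (33.7%) and 384 in 2C2 (33.2%). For the 129S share, 576 of 594 members were higher in C1 (31.4%) and 1 lower (25.9%), 560 higher in 11C (17.7%) and 2 lower (20%), 403 higher in WT (30.1%) and 24 lower (24.1%), and 205 higher in 2C2 (30.3%) and 116 lower (24.5%). Nearly every member that could be read thus leaned to 129S in C1 and 11C, and the direction was less uniform in total counts. The spread between genes was wide in 11C, where the quartiles of the total difference were 0.79 apart for members and 0.80 for genes on other autosomes, against 0.33 and 0.36 in C1. So gene-by-gene differences of 11C are no wider on members than elsewhere in the genome.

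The allelic odds ratio against C11 gives the dosage of each member free of library size, since an added 129S copy gives 2. Its median over 594 members was 2.04 in C1 (quartiles 1.86 to 2.17) and 2.00 in 11C (1.79 to 2.18), and the 95% interval of 513 members in C1 (6.56% on other autosomes) and 435 in 11C (4.57%) covered 2. In WT the median was 1.17 (1.08 to 1.26), and 245 members (41.2%, against 7.81% on other autosomes) had an interval above 1. For 2C2 it was 1.03, and 86.2% of intervals covered 1, as did 86.4% on other autosomes. The median on other autosomes was 1.01 in WT, C1 and 2C2 and 0.991 in 11C. Intervals also covered 2 for 66 members in WT (5.59% on other autosomes) and 50 in 2C2 (6.82%), so covering 2 does not by itself mark an added copy. The region was chosen from these counts, so the ratios and intervals describe its members and test nothing.

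The best-covered members narrow this. Among 160 members before Cdk12 that averaged 1000 allelic counts or more, 157 had an odds ratio between 1.5 and 2.5 in C1 and 151 in 11C, against 1 in WT and 0 in 2C2. Of 2675 equally deep genes on other autosomes the share was 1.64% in C1, 2.06% in 11C, 1.68% in WT and 1.83% in 2C2. The lowest were Pisd-ps1, a pseudogene, at 1.06 in C1, and Eif4a1, an RNA helicase of translation initiation, at 1.19 in 11C. The highest in both lines was Abca13, a large lipid transporter, at 8.47 in C1 and 7.82 in 11C. WT spanned 0.959 (Sgcd, of the dystrophin complex) to 1.50 (Ascc2, of an RNA and repair complex), and 2C2 spanned 0.817 (Mapk9, a stress kinase) to 1.26 (Vps54, of endosome to Golgi transport). These genes were named after their values were seen, and they show how few of the deep members stray from the ratio of their line.

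**Figure D2:**
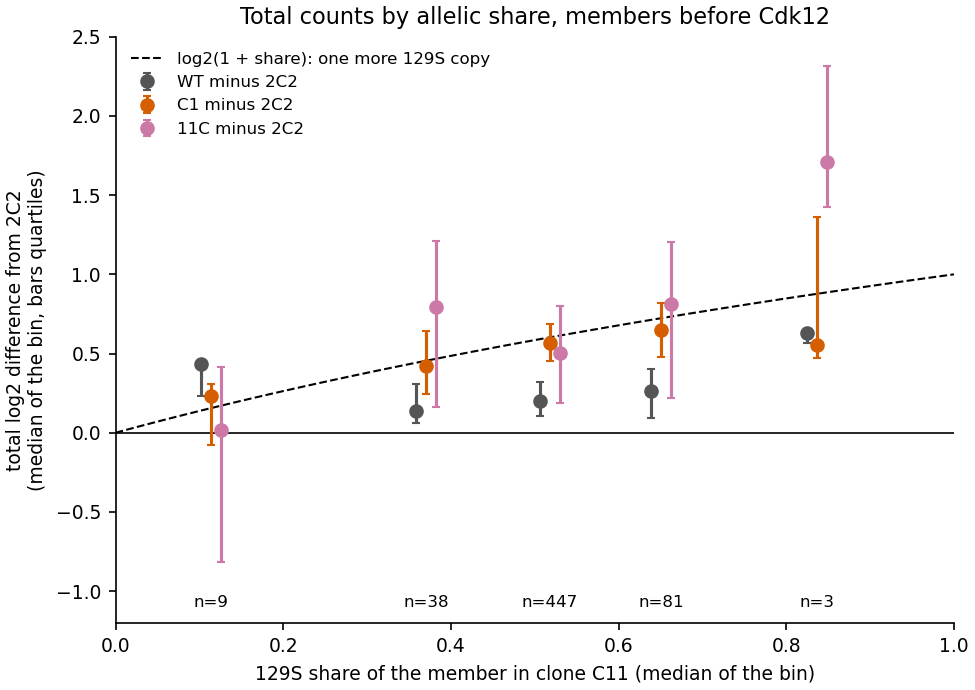
Total log2 difference from 2C2 for members before Cdk12, grouped by their 129S share in C11, as median and quartiles. The dashed line is the log2 of 1 plus the share, the value for a doubled 129S copy.

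Total differences were also read by allelic share. Members before Cdk12 were grouped by their 129S share in C11, with medians of 0.371 (38 members), 0.518 (447) and 0.650 (81) in the groups that hold at least 20. The total difference of C1 from 2C2 was 0.42, 0.57 and 0.65 in these groups, where doubling gives 0.45, 0.60 and 0.72. In WT the difference was 0.13, 0.20 and 0.26, and in 11C 0.79, 0.50 and 0.82. Across these groups, medians of the total difference thus rose with the share in C1 and in WT and not in 11C. The cause was not tested. In WT the quartiles of the groups overlapped, at 0.06 to 0.31, 0.10 to 0.32 and 0.09 to 0.40. The end groups, of 9 and 3 members, gave 0.43 and 0.63 in WT and 0.23 and 0.56 in C1. The order thus did not hold at the low end in WT or the high end in C1. The share change of C1 from 2C2 and that of 11C from C11, which have no library in common, had a Pearson r of 0.372 (Spearman 0.271) over 578 members before Cdk12 and 0.611 (Spearman 0.387) over the 160 deep members, with Abca13 among them. Both comparisons use the same genes and the same variants between strains, which may carry part of that relation.

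Along the chromosome, 10 windows of 10 Mb were read. The median share ranged from 0.676 to 0.707 in C1 and from 0.669 to 0.705 in 11C, against 0.513 to 0.543 in 2C2, 0.542 to 0.581 in WT and 0.492 to 0.548 in C11. The allelic lean of C1 and 11C thus ran from the first window to the last, and genes above 100 Mb had it too (0.693 in C1 and 0.682 in 11C). Total differences from C11 ran from 0.36 (10 to 20 Mb) to 0.54 (20 to 30 Mb) in C1 and from 0.09 (10 to 20 Mb) to 0.57 (60 to 70 Mb) in 11C. In the 10 to 20 Mb window, where 18 of 25 members reached the count limit, the 11C libraries gave 0.01, -0.17, 0.17 and 0.35, so totals of that window varied between replicates while shares did not.

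Base composition went with part of this spread. The median transcript GC of members ranged from 43.3% (20 to 30 Mb) to 53.4% (0 to 10 Mb) between windows. Over 674 members with a GC value, the total difference from C11 had a Pearson r with GC of 0.268, 0.509, 0.188 and 0.090 in the 11C libraries (NoDox1, Dox1, NoDox2, Dox2), and over 10353 genes of other autosomes 0.252, 0.475, 0.134 and 0.021. In 2C2 r was -0.192 and 0.113 on members and -0.280 and -0.00455 on other autosomes (without and with Dox). In the 11C libraries totals thus went with GC in the same direction on members as on other autosomes, most in Dox1. Members and other autosomes were less alike with Dox in 2C2 and in WT, where r was 0.136 on members and 0.0147 on other autosomes. How much of the gene differences comes from GC was not tested. The share change of 575 members in the 11C libraries had r between -0.057 and -0.020 with GC, so the allelic reading carries little of it.

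**Figure D3:**
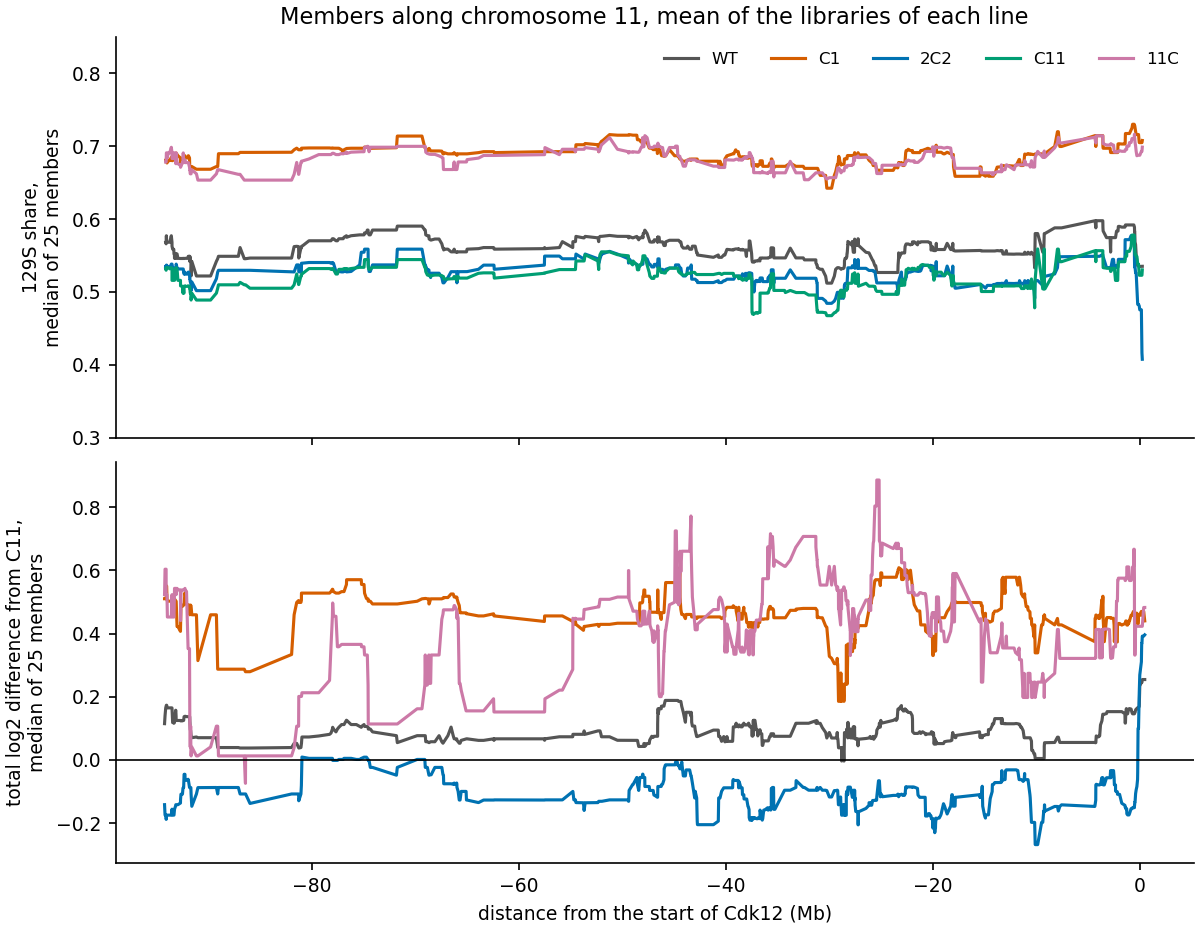
Running median of 25 members along chromosome 11, by distance in Mb from the start of Cdk12, for the 129S share of each line.

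Clone 2C2 changed state at Cdk12, a place chosen after the values were seen. The 129S share of Med1 was 0.547 and 0.535 in 2C2, 0.559 and 0.570 in WT, 0.706 and 0.703 in C1, 0.548 and 0.529 in C11, and 0.686, 0.678, 0.686 and 0.681 in 11C. Cdk12 starts 10011 bases from where the counted Med1 gene begins. Its share was 0.178 and 0.172 in 2C2, 0.375 and 0.372 in WT, 0.678 and 0.670 in C1, 0.494 and 0.498 in C11, and 0.676, 0.661, 0.684 and 0.669 in 11C. The step was thus present in 2C2 and, smaller, in WT, and absent from the other lines. In the pooled libraries of 2C2 the share of Med1 was 0.541 (interval 0.519 to 0.562) and that of Cdk12 0.175 (0.169 to 0.180). These genes were chosen for that difference, so the intervals describe it and are no test. Stard3 stood at 0.399 and 0.294 and Erbb2, a growth factor receptor, at 0.329 and 0.315 in 2C2, so the low share continued past Cdk12.

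**Figure D4:**
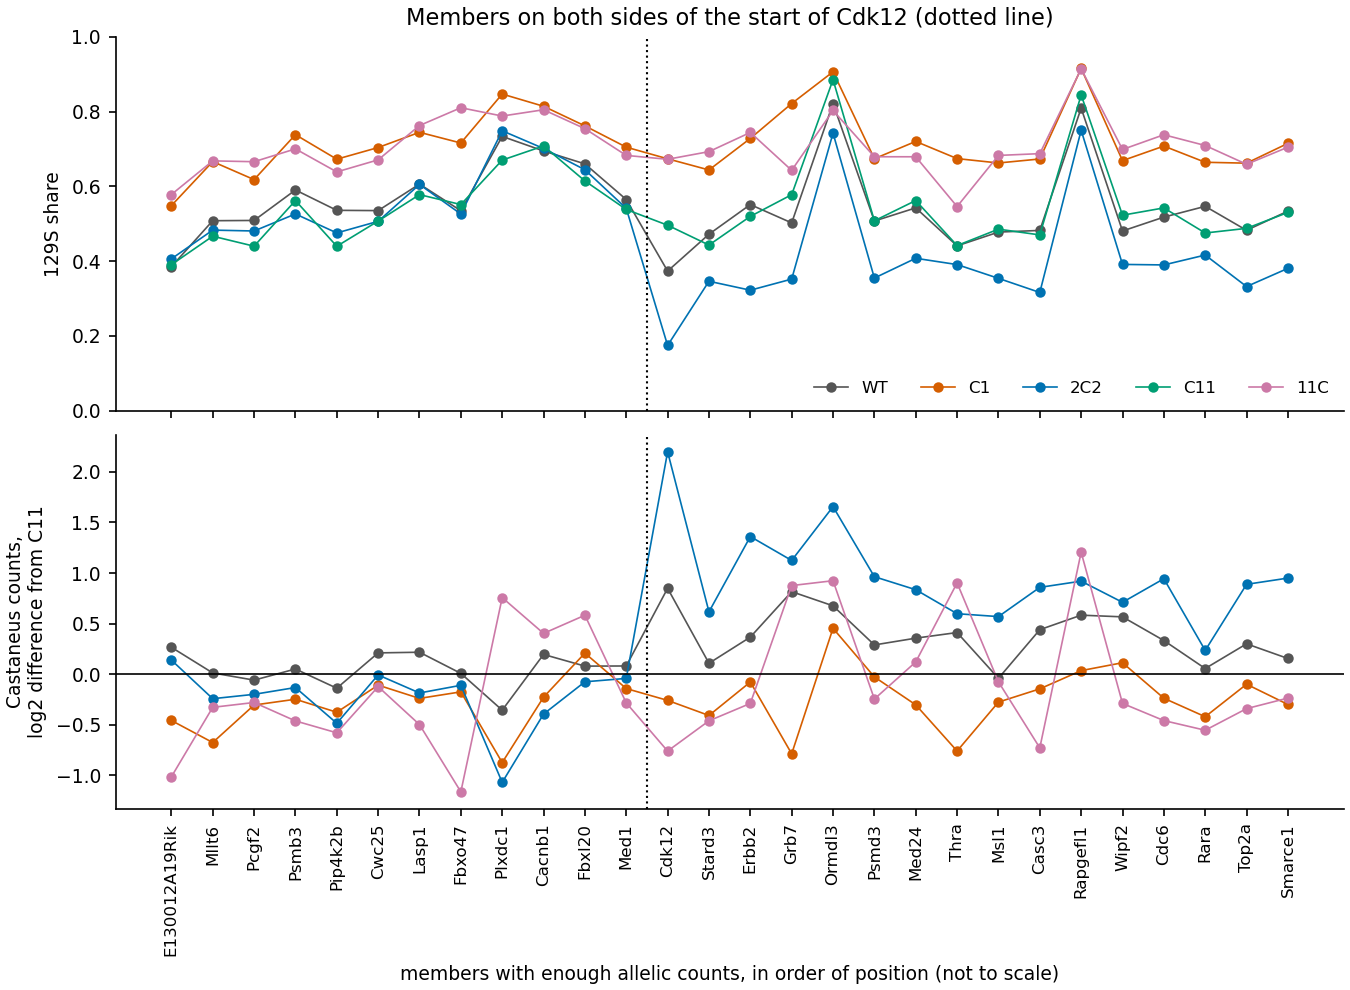
Members on each side of Cdk12, with the 129S share of each line and the log2 difference of Cast counts from C11.

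The step lay on the Cast allele. Cast counts of Cdk12 were 7381 and 7954 in 2C2, 3503 and 3328 in WT, 1476 and 1496 in C1, 1844 and 1801 in C11, and 839, 1274, 749 and 822 in 11C. Against C11, the log2 difference of Cast counts was 2.20 in 2C2 and 0.85 in WT, while that of 129S counts was -0.04 and 0.11. Cdk12 itself thus went beyond a doubling of Cast counts in 2C2. Total Cdk12 was 1166 and 1049 RPM in 2C2, 654 and 614 in WT, 587 and 536 in C1, 468 and 429 in C11, and 449, 386, 453 and 431 in 11C. Its odds ratio against C11 was 0.215 (0.202 to 0.228) in 2C2 and 0.606 (0.570 to 0.643) in WT, next to 2.10 in C1 and 2.07 in 11C.

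Members from Cdk12 on had a weaker form of it in 2C2. Of 83 such members 19 reached a mean of 50 counts and 16 reached it in allelic counts. Their line mean of the median share was 0.374 in 2C2, 0.506 in WT, 0.687 in C1, 0.514 in C11 and 0.694 in 11C, against 0.528, 0.561, 0.689, 0.522 and 0.683 for the members before Cdk12. Against C11, Cast counts of the members from Cdk12 on were 0.91 higher in 2C2 and 0.36 higher in WT, and 129S counts differed by 0.01 and 0.25. Genes above 100 Mb had Cast differences of 0.83 and 0.27, so the state that begins at Cdk12 goes on past the end of the region. The median odds ratio against C11 of the 16 members was 0.541 in 2C2, with 13 intervals below 1 (475 of 9271 on other autosomes), and 0.972 in WT, with 15 covering 1 (88.5% on other autosomes). In WT the allelic balance of these members, apart from Cdk12, was thus about as near to C11 as on other autosomes. Median counts of both alleles were higher than in C11. The total difference of 2C2 from C11 changed sign within the region, from -0.11 before Cdk12 to 0.46 from it on.

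The 15 members after Cdk12 with enough allelic counts had a 2C2 share between 0.316 (Casc3, of the exon junction complex) and 0.750 (Rapgefl1, a guanine nucleotide exchange factor). Ormdl3, a regulator of sphingolipid synthesis, stood at 0.742, and both it and Rapgefl1 had a high 129S share in every line. Their Cast counts differed from C11 by 0.23 (Rara, a retinoic acid receptor) to 1.66 (Ormdl3). Higher Cast counts thus held for each of the 15, in differing size. Near the 100 Mb limit, members inside and genes outside looked alike in 2C2, at 0.416 (Rara), 0.332 (Top2a, a DNA topoisomerase) and 0.381 (Smarce1, of the BAF complex) inside and 0.332 (Krt42), 0.495 (Eif1) and 0.397 (Hap1) outside. In C1 the same genes stood at 0.664, 0.662 and 0.715 inside and 0.633, 0.737 and 0.718 outside.

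Single members differed most from C11 in 11C, whose libraries also stand apart in Rmrp, a noncoding RNA, at 4056, 7098, 6202 and 7638 RPM against 874 and 718 in C11, and its part in these differences was not tested. Among those with a mean of at least 200 counts, the highest mean log2 differences were 2810442I21Rik at 2.11 (SD 0.45, n 4), Stc2, a secreted glycoprotein, at 1.88 (SD 1.01), Acsl6, a fatty acid ligase, at 1.87 (SD 0.18), Slc22a21, a carnitine transporter, at 1.85 (SD 0.32) and Arhgap44 at 1.80 (SD 0.16). The lowest were 2210409E12Rik at -1.92 (SD 0.45), Mir6380 at -1.70 (SD 0.41), Bcl11a, a zinc finger repressor, at -1.55 (SD 1.54), Purb, a single-strand DNA binding protein, at -1.55 (SD 0.25), and Calcoco2, an autophagy receptor, at -1.05 (SD 0.12). In C1 the same 10 stood at 1.13, 0.63, 1.19, 1.32, 0.75, -0.88, -0.39, 0.49, -0.05 and -0.01. In C1 Bcl11a thus had the opposite sign, and Purb and Calcoco2 stood near 0. Clone 2C2 also stood below C11 in Mir6380 (-1.21) and Bcl11a (-0.73). Against 2C2 the 11C means were -0.49 for Mir6380 and -0.83 for Bcl11a, so their size depended on the reference. The mean over the 11C libraries kept its sign against 2C2 in the same 10 genes. For Bcl11a that mean had an SD of 1.55. Its replicate 1 libraries of 11C, at 15.2 and 13.6 RPM, stood above 2C2, at 10.1 and 8.68.

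Arhgap44 was 630, 694, 634 and 712 RPM in 11C against 175 and 201 in C11 and 281 and 343 in C1. Purb was 119, 99.5, 72.7 and 66.4 RPM in 11C against 271 and 228 in C11. Stc2 reached 111 and 93.7 RPM in replicate 1 of 11C but 36.5 and 25.05 in replicate 2, and Bcl11a stood at 15.2 and 13.6 against 3.33 and 1.23. Of these 4, Arhgap44 thus differed least between the 11C replicates, and Stc2 and Bcl11a differed most. The 129S share of Arhgap44 was 0.732 in 11C and 0.539 in C11, and that of Bcl11a 0.678 and 0.494. It was 0.570 and 0.475 for Purb, 0.811 and 0.796 for Acsl6 and 0.614 and 0.735 for Mir6380, so the allelic shift varied among these members and Mir6380 went toward Cast.

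A few members are read mostly from 1 allele. The lowest 129S shares in 2C2 were Ccl9, a chemokine, at 0.0188, Abca13 at 0.0734 and 2210409E12Rik at 0.0821, and the highest were Gria1, a glutamate receptor subunit, at 0.972, Gm15698 at 0.853 and Ubb, a ubiquitin gene, at 0.801. Abca13 had the highest odds ratio in C1 and 11C among the 160 deep members before Cdk12. Its share was 0.393 and 0.446 in C1 and 0.437, 0.478, 0.327 and 0.393 in 11C, against 0.0782 and 0.0786 in C11. Its total differed from C11 by -0.52 in C1 and by -0.82, -1.53, 0.25 and 0.31 in 11C, so its share moved in all these libraries while its level did not keep a direction in 11C. Against 2C2 its total in C1 differed by -0.07. Ubb stood at 0.871 in C1, 0.779 in WT and 0.762 in 11C against 0.764 in C11, so it was level with C11 in 11C.

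Reference members show how far levels and shares part. Lif, the cytokine that holds embryonic stem cells undifferentiated, differed from C11 by 0.92 in C1, 0.85 in 11C, 0.36 in WT and -0.08 in 2C2, with shares of 0.786, 0.726, 0.659 and 0.576 against 0.584 in C11. Polr2a, the largest subunit of RNA polymerase II, differed by 0.15 in C1 and -0.10 in 11C, with shares of 0.669 and 0.675 against 0.466. Ncor1, a corepressor, differed by 0.45 in C1 and 0.17 in 11C (shares 0.752 and 0.755 against 0.594), and Aurkb, a mitotic kinase, by 0.28 and 0.13 (0.700 and 0.675 against 0.468). Npm1, a nucleolar chaperone, differed by 0.38 in C1 and -0.49 in 11C (0.696 and 0.688 against 0.526). The odds ratios of Polr2a, Ncor1, Aurkb and Npm1 against C11 were between 2.06 and 2.64 in C1 and between 1.99 and 2.33 in 11C, while Lif, with a mean of 48.8 allelic counts, is under the limit for shares and had 1.69 (0.964 to 2.95) in 11C. In the 11C libraries the total of Ncor1 differed by 0.02, -0.04, 0.16 and 0.54 and that of Aurkb by 0.26, 0.25, 0.10 and -0.09. Against 2C2 in place of C11, totals in 11C were 0.32 for Ncor1, 0.16 for Aurkb and -0.37 for Npm1. Polr2a was 0.36 in C1 and 0.10 in 11C against 2C2, so its sign in 11C depended on the reference. The 4 genes thus had the 129S lean in both lines, and their levels in 11C differed in direction between genes.

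Lists by function are set against members as a whole, of which 97.0% (C1) and 94.3% (11C) had a higher share than C11 in every pairing and 87.7% and 62.6% a higher total. A call needs 2 pairings in C1 and 4 in 11C, so fewer calls in 11C are built in. Of RNA polymerase II and mRNA processing genes (19 of 19 are members), 17 of 17 with allelic depth had a higher share than C11 in every pairing in C1 and 17 in 11C, and 18 and 10 of 19 a higher total, with median differences of 0.37 and 0.19. Eif4a1 was the highest in 11C (1.33) and Prpf8, the core splicing factor, the lowest (-0.71). The share of Eif4a1 was 0.558 in 11C, 0.696 in C1 and 0.505 in C11. Its mean was 31478 counts but only 1036 allelic counts, so its total rests mostly on pairs without an allele. In 11C NoDox1 it had 370 129S and 299 Cast counts, against 482 and 476 in C11 without Dox, while its total went from 761 to 1793 RPM. Chromatin regulators (20 of 20) had a higher share in 20 in both lines and a higher total in 17 and 8, between Rai1, a nucleosome-binding regulator, at 1.49 and Bcl11a. Replication and repair genes (11 of 13) had a higher share in 10 and 11 and a higher total in 10 and 8, between Lig3, a DNA ligase, at 0.89 and Slfn9 at -0.11. Against 2C2, Slfn9 stood at 0.75 in 11C, so its sign depended on the reference. These lists thus had the 129S lean in nearly each gene, as members had in general, and no difference of a list from members was tested.

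Mitosis and cell cycle genes (17 of 19, with 15 deep enough) had a higher share in 15 (C1) and 14 (11C) and a higher total in 15 and 6, between Kif3a, a kinesin motor, at 0.99 and Hmmr, a spindle protein, at -0.32. Signalling genes (19 of 21) had a higher share in 17 and 16 of 17 and a higher total in 18 and 10 of 18, between the kinase Mink1 at 1.16 and the kinase Taok1 at -0.86. Folding, transport and metabolism genes (25 of 27) had a higher share in 23 and 23 of 23 and a higher total in 24 and 8 of 24, between Vps53, of endosome to Golgi transport, at 1.02 and Npm1. Developmental transcription factors and RNA-binding proteins (17 of 17, of which 8 were deep enough) had a higher share in 8 and 8 and a higher total in 7 and 7, between Irf1, an interferon response factor, at 1.42 and Igf2bp1, an mRNA-binding protein, at -0.50. In the HoxB cluster (11 of 11) only Skap1, an adaptor of T-cell signalling beside the cluster, was deep enough, at 0.56 in C1 and 0.75 in 11C, and its share was 0.706, 0.623, 0.479 and 0.500 in 11C and 0.729 and 0.705 in C1 against 0.569 and 0.521 in C11, so it leaned to 129S in C1 and had no steady lean in 11C. The 10 Hoxb genes had a mean under 50 counts. Listed genes under that limit thus tell nothing of dosage here.

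**Figure D5:**
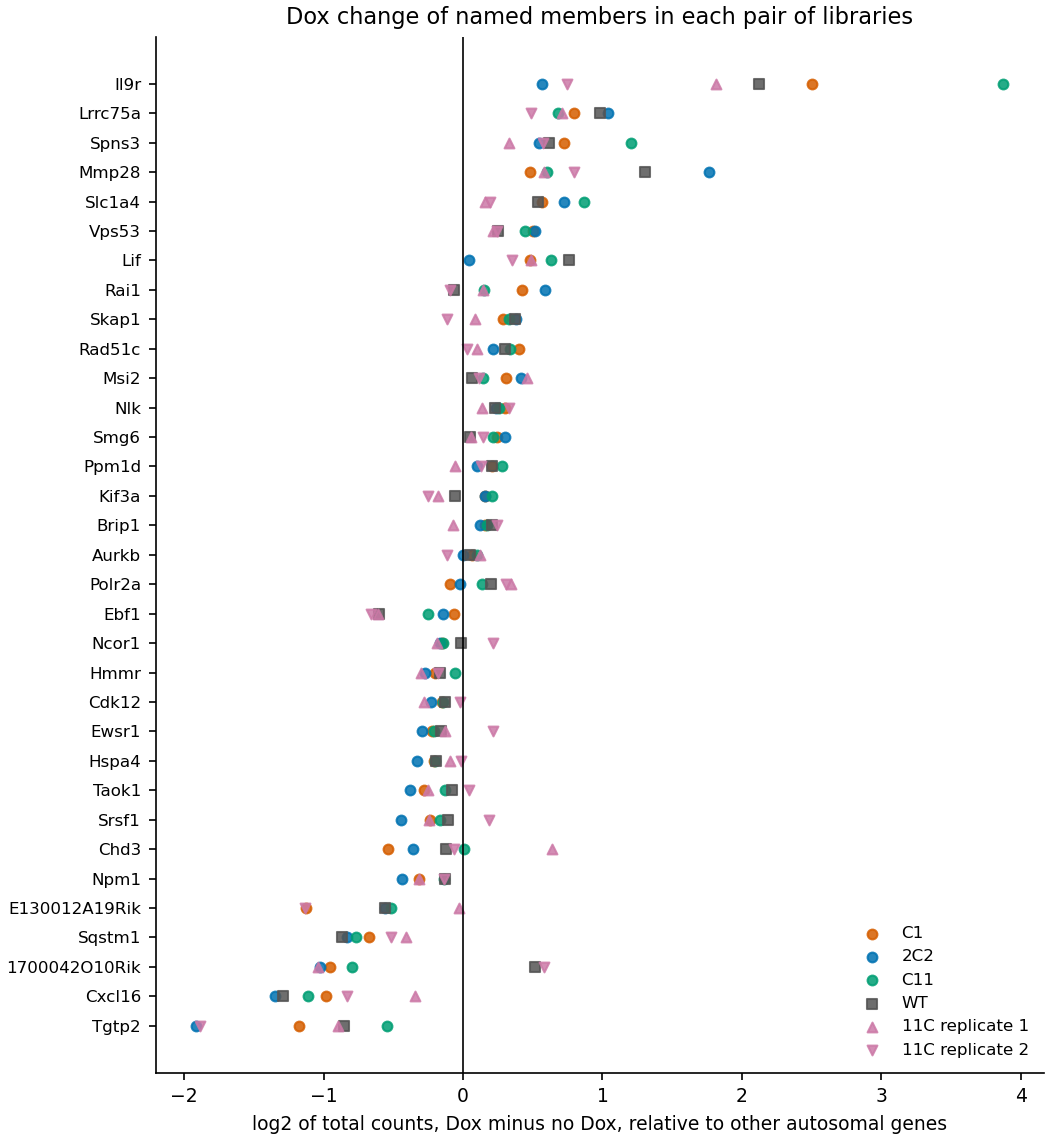
Log2 change with Dox of 33 named members in each of the 6 pairs of libraries.

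The median allelic share of members moved little with Dox, and in no steady direction. The change of the median share, with Dox minus without, was 0.00171 in WT, 0.00163 in C1, 0.00257 in 2C2, -0.00408 in C11, and -0.00447 and 0.00290 in 11C. The mean was 0.0000424 (SD 0.00338, n 6), higher in 4 of 6 pairs, and an exact sign-flip test gave p = 0.938, where 0.0313 is the smallest it can give. Intervals in this report cover counting error only, and p-values measure only the spread between these samples, which may be technical.

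Tests of Dox on single members called none in 11C. With edgeR, 0 of 851 members tested were called in 11C (0% of 15140 genes). An unadjusted p under 0.05 was found for 5 (0.588%, against 1.14% of all genes), and DESeq2 called 0 of 1074. The edgeR fit did not call Xist either, which went from 100 to 3140 RPM (replicate 1) and from 85.6 to 4576 (replicate 2). It therefore cannot tell whether members of 11C changed with Dox. In the A-repeat clones edgeR called 0 of 814 members (0.0202% of 14866 genes, and 0 to 2 genes with a clone left out), 47 (5.77%, against 14.5% of all genes) had an unadjusted p under 0.05, and DESeq2 called 7 of 1075 (1.82% of all genes).

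With clone as a block, which takes steady differences between clones out, 250 of 831 members changed in the A-repeat clones, 130 higher and 120 lower. That is 30.1% of members where 29% of all 15130 genes changed (14.5% higher and 14.5% lower), so it is not a result about members. Most changes were small, with 216 of the 250 under a log2 change of 0.5 and 3 of at least 1. Of the 250, 239 went the same way in all 3 clones, which a call made on these same clones favours. In this edgeR fit members thus changed with Dox about as often as genes did in general, and 39% and 38.8% had an unadjusted p under 0.05. The clone fits without a block gave members a lower share. Those fits leave steady differences between clones in the spread, and the median member of C1 stood 0.46 above C11. The part of this in the lower share was not tested.

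The test keeps members with fewer counts than the limit of 50 used for line differences, and Il9r, Tgtp2, 1700042O10Rik and Mmp28, which are among its 10 largest changes, have a mean under that limit, so their sizes are loose. Il9r, a cytokine receptor, changed by 2.64 (adjusted p 0.000296) with under 1 RPM in every clone library, and Tgtp2, an interferon-induced GTPase, by -1.13 (0.0218). Cxcl16, a chemokine with more counts, changed by -1.12 (7.15e-07). Sqstm1, an autophagy receptor, fell by 0.74 (1.10e-10), from 151 to 96.1 RPM in C1, from 99.1 to 58.9 in 2C2 and from 91.6 to 54.7 in C11, and went from 99.0 to 55.9 in WT. The others of the 10 largest were 1700042O10Rik at -0.91 (0.00750), Lrrc75a at 0.85 (1.30e-06), Spns3, a lipid transporter, at 0.84 (0.00355), Mmp28, a metalloproteinase, at 0.81 (0.0379), Slc1a4, an amino acid transporter, at 0.73 (2.94e-07) and E130012A19Rik at -0.71 (2.53e-06). All 10 went the same way in the 3 clones. Changes in 11C were -0.41 and -0.52 for Sqstm1, -0.35 and -0.83 for Cxcl16, 0.71 and 0.49 for Lrrc75a, -0.03 and -1.13 for E130012A19Rik and -1.04 and 0.58 for 1700042O10Rik, which was 0.52 in WT. So the direction was not kept by each of the 10 in 11C, where the test called no gene at all, Xist included.

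Listed genes were read in the same fit, where 15.6% of members were higher and 14.4% lower. RNA polymerase II and mRNA processing genes were 1 higher and 7 lower of 19 tested, among them Smg6, of nonsense-mediated decay, at 0.27, Srsf1, a splicing factor, at -0.27, Ewsr1, an RNA-binding protein, at -0.23 and Cdk12 at -0.16 (adjusted p 0.00575). Folding, transport and metabolism genes were 2 higher and 8 lower of 25, with Npm1 at -0.29 (5.19e-05), Hspa4, a chaperone, at -0.23 (0.000280) and Vps53 at 0.50 (5.03e-07). Chromatin regulators were 3 higher and 7 lower of 20, with Rai1 at 0.40, Chd3, a remodeller, at -0.27 and Ncor1 at -0.14. In these lists 11, 15 and 10 genes were not called, and whether a list differs from members in general was not tested.

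Replication and repair genes were 3 higher and 0 lower of 11, namely Rad51c at 0.34, Brip1 at 0.17 and Ppm1d at 0.21. Signalling genes were 6 higher and 2 lower of 19, with Lif at 0.42 (0.0224), Nlk, a kinase, at 0.28 and Taok1 at -0.25. Mitosis and cell cycle genes were 1 higher (Kif3a, 0.19) and 4 lower of 15, with Hmmr at -0.16. Of developmental factors 1 was higher and 2 lower of 14, with Msi2, of the RNA-binding proteins, at 0.30 and Ebf1, a B-cell factor, at -0.14. Outside the clones Ebf1 changed more, by -0.61 in WT and by -0.61 and -0.66 in 11C. Of the HoxB list Skap1 was higher at 0.34 of 2 tested. Called genes were thus a minority of the repair, signalling and mitosis lists. Polr2a (0.02, adjusted p 0.801) and Aurkb (0.07, 0.548) did not pass the test. Apart from the 10 largest, Lif, Polr2a, Ncor1, Aurkb and Npm1, and the highest and lowest of each list in 11C, the genes named here were picked as examples after their values were seen.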

How the data were processed

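The authors deposited whole-number counts of read pairs per gene, made with featureCounts 1.5.2 over gene spans of mm10, stranded, after STAR 2.4.2a and Bowtie2 2.3.2, for all pairs, for pairs assigned to Cast and for pairs assigned to 129S. Members and lists were chosen with earlier results of these data known.

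Log2 differences used counts plus 0.5. Allelic odds ratios summed the libraries of a line, with Woolf 95% intervals, and pooled shares have Wilson intervals. Line differences were read where counts averaged 50 or more. Overlap with another gene on the same strand affects 45 of 1230 members. Dox tests used edgeR 4.0.16 (quasi-likelihood, TMM, minimum count 10) at adjusted p 0.05, with DESeq2 1.42.0 beside it, in R 4.3.3, and Python 3.11.15, numpy 2.4.6, pandas 2.3.3 and scipy 1.17.1. Clones were paired by name, and each library without Dox correlated best with the Dox library of its own clone (0.819, 0.610 and 0.720).

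Named genes are the highest and lowest of each list by 11C minus C11, the 5 highest and 5 lowest members with at least 200 counts, the 3 lowest and 3 highest 129S shares in 2C2, up to 10 called members of each Dox test, and Lif, Polr2a, Ncor1, Aurkb and Npm1. Alternatives were RPM, 2C2 or WT as reference, other count filters, summed counts and leaving out a replicate or clone. Keeping only members before Cdk12 was added after seeing the data.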

Additional observations from a re-analysis of the deposited data

Results flagged for a closer look

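Of 59 named genes compared between the A-repeat clones and 11C for the change with Dox, 4 went 1 way in every clone and the other way in both 11C pairs, and the difference between the lines was not tested. Apart from Polr2a and Aurkb, the 59 were genes called in the clones. No share over all genes stands beside this count, so it gives no rate. Genes with less steady pairs were left out, such as Eif4a1 at -0.33, -0.37 and 0.07 in the clones and 0.40 and 0.46 in 11C. These are total counts, of which few carried an allele in Eif4a1. Smg8, of nonsense-mediated decay, changed by -0.48, -0.44 and -0.12 in C1, 2C2 and C11 and by 0.05 and 0.09 in 11C, a difference between the means of 0.42. Kat7, a histone acetyltransferase, changed by -0.08, -0.15 and -0.24 in the clones and by 0.05 and 0.12 in 11C, a difference of 0.24. Kif3a changed by 0.16, 0.15 and 0.21 in the clones and by -0.18 and -0.25 in 11C, a difference of -0.39. Kpnb1, an importin, changed by -0.29, -0.31 and -0.08 in the clones and by 0.01 and 0.15 in 11C, a difference of 0.31.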

How the results depend on the processing

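Line differences of the median member depended on the reference. With 2C2 as reference the total differences were 0.21 in WT, 0.56 in C1 and 0.55 in 11C, the 129S differences 0.29, 0.96 and 0.95, and the Cast differences 0.11, -0.0183 and -0.0577. With WT as reference the totals were 0.35 in C1, -0.21 in 2C2 and 0.35 in 11C. RPM without scaling gave totals of 0.13 in WT, 0.43 in C1 and 0.48 in 11C, 129S differences of 0.24, 0.83, -0.11 (2C2) and 0.75, and Cast differences of 0.0152, -0.16, -0.14 (2C2) and -0.23. The Cast difference of WT is therefore without a settled sign. A mean of at least 200 counts gave 0.85 for 129S in C1 and -0.12 for Cast in 2C2. Members before Cdk12 alone, an alternative chosen after seeing the data, gave 2C2 a total of -0.11 and a Cast difference of -0.12, and WT 0.20 for 129S.

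Shares hardly moved. A minimum mean of 10 gave 0.561 in WT and 0.528 in 2C2, a minimum of 200 gave 0.559 in WT, and summed counts gave 0.563 in WT, 0.693 in C1, 0.524 in 2C2, 0.527 in C11 and 0.688 in 11C. The share change with Dox was -0.00138 from summed counts (exact sign-flip test, p = 0.188) and -0.000529 to 0.000946 with a pair left out, so its sign is not settled.

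Dox counts depended on the model. In 11C, replicate as block called 7 of 851 members and 237 of 15140 genes, although the replicates share only a number (correlation 0.771). Over all genes, DESeq2 called 3 in 11C, no filter 2, all 12 libraries in 1 fit 2, and leaving out a replicate, a library of each state, 1 to 1. In the clones, the clone block called 250 members and 4384 genes, DESeq2 7 and 360, and leaving out a clone 0 to 2 genes. In 11C, Srsf1 (-0.0282) and Skap1 (-0.0078) changed sign with the block. With a replicate left out, the 11C change ranged over both signs for 1700042O10Rik (-1.06 to 0.61), Aurkb (-0.0946 to 0.10), Brip1 (-0.0913 to 0.26), Chd3 (-0.0494 to 0.62), Ewsr1 (-0.15 to 0.24), Hspa4 (-0.11 to 0.0056), Ncor1 (-0.20 to 0.24), Ppm1d (-0.0782 to 0.15), Rai1 (-0.0745 to 0.13), Skap1 (-0.10 to 0.0662), Srsf1 (-0.26 to 0.21) and Taok1 (-0.27 to 0.0621), and with a clone left out for Polr2a (-0.0528 to 0.0743). None of these genes passed the test in those fits, which assume that a lone library varies like the other groups, and the cause was not tested. Beyond these counts and the genes named from the clone block, the blocks changed no call printed here.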
